A study of Mus musculus with 2 samples.

Results

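Mir192, Mir194-1, Mir194-2, Mir215, Mir204 and Mir211 are 6 microRNA (miRNA) genes grouped here as kidney-enriched, the kidney being the organ beside the adrenal gland. For Mir211 this is the grouping alone, since miR-211 is known from pigment cells. The members were chosen by their gene symbols and make up 6 of the 2202 miRNA genes measured in adrenal tissue. Small RNA was sequenced from adrenal glands of female B6CASTF1/J mice aged 18 to 20 months, the F1 cross between the C57BL/6J and CAST/EiJ strains, with no treatment given in the labels. There was 1 group of 2 biological replicates, whose tissue samples the labels number as different females but place under the same donor record. With 1 library on each side of the test used below, its p-values hold counting error and no spread between samples. No kidney sample was analysed here, so enrichment in the kidney is background and was not measured.

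An miRNA is cut from a hairpin precursor, and either arm of the hairpin can become the mature miRNA, which guides a silencing complex to target mRNAs. Bases 2 to 8 of the mature sequence, the seed, do most of the pairing with these targets, so miRNAs with the same seed share many predicted targets. miR-192, miR-194 and miR-215 are known from the epithelia of kidney, liver and gut. miR-204 and miR-211 lie in genes of the TRPM channel family. miR-204 is known from kidney, retinal pigment epithelium and choroid plexus, and miR-211 from pigment cells.

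The mature 5p sequences are shown because they decide which reads can be assigned to which gene and which members share a seed. They are from RefSeq (GRCm38.p6), in which all 6 genes were matched, and are written 5′ to 3′ with the seed in capitals.
miR-192-5p: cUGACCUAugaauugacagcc
miR-215-5p: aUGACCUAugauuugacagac
miR-194-5p: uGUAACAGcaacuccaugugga
miR-204-5p: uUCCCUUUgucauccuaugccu
miR-211-5p: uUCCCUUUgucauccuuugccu

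The 5p sequences fall into 3 seed groups. miR-192-5p and miR-215-5p have the seed UGACCUA, which no other gene of the RefSeq table has, and differ at 3 of 21 positions (C1A, A12U and C20A, counted from 1 at the 5′ end, the miR-192-5p base first). miR-204-5p and miR-211-5p have the seed UCCCUUU and differ at 1 of 22 positions, A17U, with the miR-204-5p base first. The 3p arm of Mir7670 has this seed as well, and Mir7670 had 0 counts in both libraries. miR-194-5p is the same at Mir194-1 and Mir194-2, and its seed, GUAACAG, is found at these 2 genes alone.

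Of these mature sequences, miR-194-5p is the member whose reads cannot be told apart by locus. The longest stretch shared by the Mir194-1 and Mir194-2 hairpins is 22 bases long and is miR-194-5p itself. A read confined to it matches both hairpins equally, and the gene counts leave out reads with more than 1 matching place. Each locus can therefore be counted only through reads that run past this stretch or that come from its 3p arm. The 3p arms differ at 4 of 22 positions (A8G, C19U, U20C and C22G, the Mir194-1 base first), 1 of which lies in the seed.
miR-194-1-3p: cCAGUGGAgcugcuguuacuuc
miR-194-2-3p: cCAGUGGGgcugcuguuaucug

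No other mature sequence of the members was contained in a further hairpin of the RefSeq table, and the longest stretch shared with any other hairpin was the 16 bases common to miR-204-5p and miR-211-5p. The counts belong to whole hairpins, so the 5p and 3p arms were not resolved. How mismatches were treated in the alignment is not given in the sources used here, so a few counts of Mir211 or Mir204 could belong to the other gene, which was not tested. Ignoring strand changed the count of 1 member in 1 library, Mir194-1 in replicate 1, from 3 to 4.

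The members lie at 4 loci (mm10, GENCODE M21). Mir194-2 (ENSMUSG00000065582.1, chromosome 19, 6264643 to 6264728) and Mir192 (ENSMUSG00000065523.1, chromosome 19, 6264844 to 6264932) are 115 bases apart on the plus strand, intergenic, with Atg2a the nearest protein-coding gene. Mir194-1 (ENSMUSG00000065581.1, chromosome 1, 185313319 to 185313385) and Mir215 (ENSMUSG00000065562.1, chromosome 1, 185313581 to 185313692) are 195 bases apart on the plus strand. Mir194-1 lies in an intron and Mir215 overlaps an exon of the noncoding RNA gene 2010103J01Rik, and both are antisense to an intron of Iars2. Mir204 (ENSMUSG00000065507.3, chromosome 19, 22750605 to 22750672) is in an intron of Trpm3, and Mir211 (ENSMUSG00000065585.1, chromosome 7, 64205806 to 64205911) is in an intron of Trpm1, each on the strand of its host.

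The members were scarce in the adrenal libraries. Together they had 285 of 2590051 own-strand counts in replicate 1 and 174 of 2291030 in replicate 2. This is 110 CPM (counts per 1000000 own-strand counts; exact Clopper-Pearson 95% interval 97.6 to 124) and 75.9 CPM (65.1 to 88.1), a mean of 93.0 ± 24.1 CPM (SD, n = 2). Intervals here hold counting error alone and treat each read as independent, although copies made by PCR count as separate reads. At least 10 counts in each library, taken here as detected, were found for Mir204, Mir194-2 and Mir192, 3 of the 6 members (50%), against 339 of all 2202 genes (15.4%). The 3 detected members held 96.1% of the members' counts in replicate 1 and 95.4% in replicate 2. Their median mean level was 24.3 CPM, against 134 CPM over all 339 detected genes.

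Mir192 had 85 counts in replicate 1 and 23 in replicate 2, which is 32.8 CPM (26.2 to 40.6) and 10.04 CPM (6.36 to 15.1), a mean of 21.4 ± 16.1 CPM (SD, n = 2). Replicate 1 was the high library, and the intervals did not overlap. Mir215, which carries the same seed, had 8 counts in replicate 1 (3.09 CPM, 1.33 to 6.09) and none in replicate 2, where a count of 0 is compatible with up to 3 counts or 1.31 CPM. The exact intervals of Mir215 overlapped between the libraries, since that of replicate 2 reached up to 1.61 CPM. Mir192 supplied most of the counts of this seed. Mir192 had 10.6 counts for each count of Mir215 in replicate 1 (exact conditional 95% interval 5.15 to 25.4) and at least 7.67 for each in replicate 2, taken against the limit of 3 counts, while the exact interval reached down to 5.75.

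Mir194-2 had 59 counts in each library, which is 22.8 CPM (17.3 to 29.4) in replicate 1 and 25.8 CPM (19.6 to 33.2) in replicate 2, a mean of 24.3 ± 2.10 CPM (SD, n = 2). Mir194-1 had 3 counts in replicate 1 and 1 in replicate 2, or 1.16 CPM (0.239 to 3.38) and 0.436 CPM (0.0111 to 2.43). Mir194-2 was the even member, with intervals that overlapped between the libraries, and Mir194-1 was at or under the limit that a count of 0 allows in both. Since miR-194-5p reads that stay within the shared stretch are counted at neither locus, these values do not give the abundance of miR-194-5p.

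Mir204 had 130 counts in replicate 1 (50.2 CPM, 41.9 to 59.6) and 84 in replicate 2 (36.7 CPM, 29.2 to 45.4), a mean of 43.4 ± 9.57 CPM (SD, n = 2). It was the most abundant member in both libraries. Mir211 had 0 counts in replicate 1 (a limit of 1.16 CPM) and 7 in replicate 2 (3.06 CPM, 1.23 to 6.30). Mir204 exceeded Mir211 at least 43.3-fold in replicate 1, against the limit of 3 counts, and the exact interval reached down to 34.7-fold. In replicate 2 the ratio was 12 (5.58 to 30.8), so these intervals did not overlap between the libraries.

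**Figure D1:**
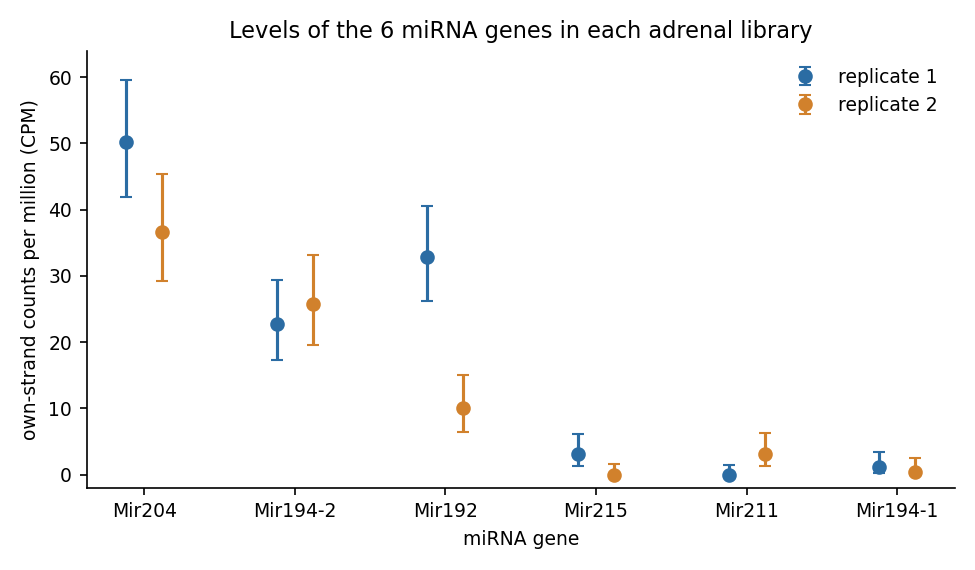
Level of each of the 6 miRNA genes (horizontal axis, ordered by mean level) in own-strand CPM (vertical axis) in replicates 1 and 2. Points are single libraries and bars are exact 95% intervals of counting error. Mir204 is highest in both libraries, Mir192 is at 32.8 and 10.04 CPM, and Mir215, Mir211 and Mir194-1 stay at or below 3.09 CPM.

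By mean level the order was Mir204, Mir194-2, Mir192, Mir215, Mir211 and Mir194-1. The library values of Mir204 and Mir194-2 did not overlap, and neither did those of Mir192 and Mir215. The values of Mir194-2 and Mir192 overlapped, as did those of Mir215 and Mir211 and those of Mir211 and Mir194-1, so these neighbours in the order were not separated by the libraries. Among all 2202 genes Mir204 ranked 228th, Mir194-2 260th and Mir192 267th by mean CPM. Mir215 ranked 438th, Mir211 439th and Mir194-1 516th, the last tied with others, among the 724 genes that had a count in either library. Hairpin counts were not divided by length, so the order is one of counts.

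**Figure D2:**
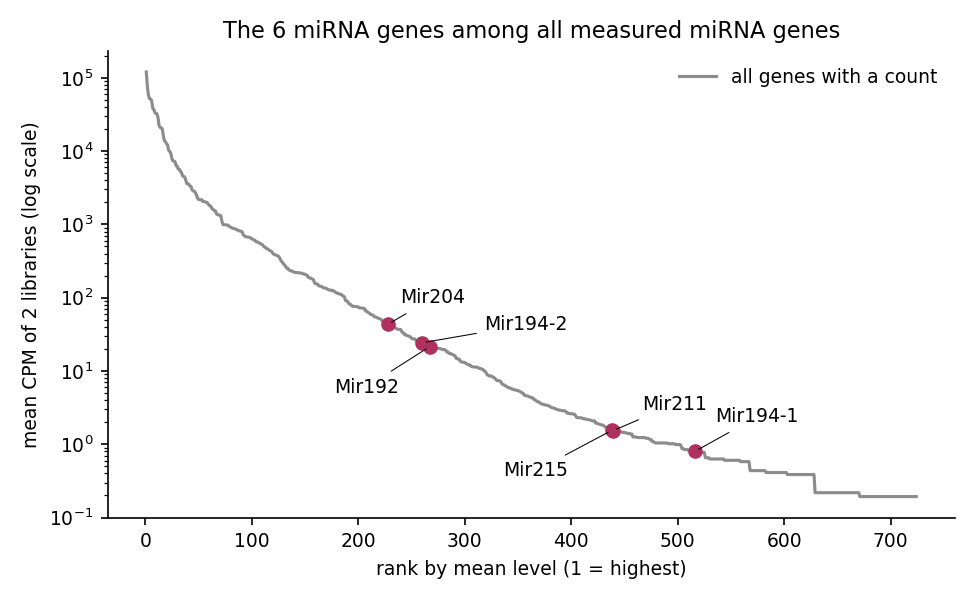
Mean CPM of the 2 libraries on a log axis (vertical) against rank (horizontal) for the 724 miRNA genes with a count in either library, with the 6 members as points. Mir204, Mir194-2 and Mir192 sit between ranks 228 and 267, and Mir215, Mir211 and Mir194-1 between 438 and 516.

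The reads of the 2 libraries were then compared gene by gene, which compares these libraries and not a condition. An exact conditional binomial test with counting error as its only spread was run on all 367 genes with a summed count of at least 20 and adjusted by Benjamini-Hochberg. Of the 6 members, 3 were tested, and only Mir192 passed an adjusted p of 0.05, higher in replicate 1. Across all tested genes 62.7% passed, 32.4% higher in replicate 1 and 30.2% higher in replicate 2, so the members' 1 of 3 is not above the background. With library sizes scaled over all genes in place of the tested ones, the share of all calls that were higher in replicate 1 was 62.1% in place of 51.7%.

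Mir192 was 3.14-fold higher in replicate 1, a log2 ratio of replicate 2 to replicate 1 of -1.65 (95% interval -2.40 to -0.99, adjusted p = 2.51e-07, exact test). A ratio at least as far from 0 was found for 30 of the 367 tested genes (8.17%), and 18 had a ratio at or below that of Mir192. In bulk tissue, fewer cells of a type and less RNA per cell cannot be told apart. Mir204 had a log2 ratio of -0.41 (-0.83 to -0.0088) and missed the threshold (adjusted p = 0.0625 in the exact test). It passed with DESeq2 size factors (-0.51, adjusted p = 0.0234, exact test), with total counts (-0.45, adjusted p = 0.0458, exact test), with strand ignored (-0.44, adjusted p = 0.0452, exact test) and with TMM factors over all genes (-0.55, adjusted p = 0.0134, exact test). Mir194-2 had a log2 ratio of 0.21 (-0.33 to 0.76) and also missed it (adjusted p = 0.547 in the exact test). The median log2 ratio was -0.41 over the 3 tested members and 0.01 over all 367 genes.

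Mir215, Mir211 and Mir194-1 had summed counts of 8, 7 and 4 and were below the minimum for testing. With no minimum, Mir215 was at least 2.298-fold higher in replicate 1 (adjusted p = 0.0307, exact test) and Mir211 at least 2.71-fold higher in replicate 2 (adjusted p = 0.0162, exact test), both against the limit of 3 counts in the library at 0. The exact intervals reached as near to no difference as -0.56 and 0.74 on the log2 scale. Mir194-1 missed the threshold here too (adjusted p = 0.851 in the exact test). Under that setting 31.5% of 724 genes were called.

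**Figure D3:**
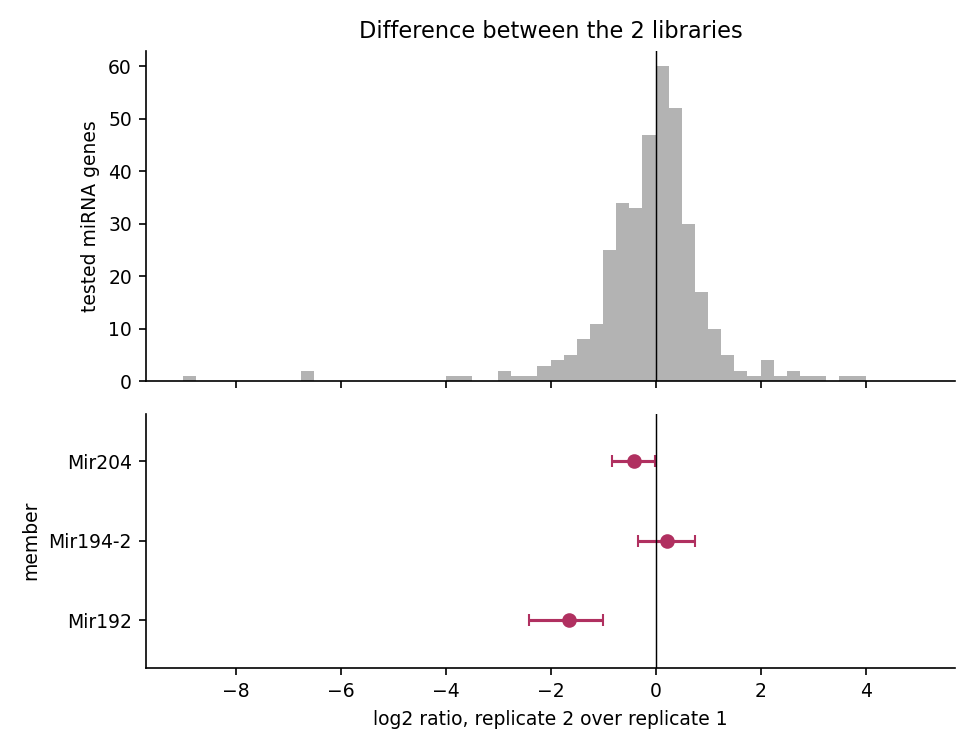
Log2 ratio of replicate 2 to replicate 1 (horizontal axis). The upper panel counts the 367 tested miRNA genes per ratio, and the lower panel gives the 3 tested members with exact 95% intervals. The interval of Mir192 lies below 0, that of Mir204 ends just below 0 and that of Mir194-2 spans 0.

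Mir192 and Mir194-2, which lie 115 bases apart, stood in a different ratio in each library. There were 1.44 counts of Mir192 for each count of Mir194-2 in replicate 1 (exact conditional 95% interval 1.02 to 2.04) and 0.390 in replicate 2 (0.230 to 0.641), and these intervals did not overlap. The part that uncounted miR-194-5p reads have in this ratio was not tested. For the other neighbouring pair, Mir215 had 2.67 counts for each count of Mir194-1 in replicate 1 (0.640 to 15.6). In replicate 2 the pair had 1 count in all, so no difference was detectable at this depth.

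The nearest genes to each detected member in level over the 2 libraries were found by Euclidean distance of log2 CPM among 336 other detected genes. Mir194-2 was nearest to Mir1247, with 58 and 56 counts (distance 0.079), and to the gene listed as Gm23935, with 63 and 58 (distance 0.097). Mir192 was nearest to Mir3105, with 81 and 18 counts (distance 0.35), and to Mir1983, with 74 and 31 (distance 0.47). Mir204 was nearest to Mir148b, with 124 and 92 counts (distance 0.15), and to Mir7j, with 111 and 82 (distance 0.23). With 2 libraries the distance describes level and direction alone.

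Other miRNAs listed as kidney-enriched were far more abundant than the members, but the Mir10 and Mir30 families that lead this list are broadly expressed. All 12 were detected, and they summed to 70824 CPM in replicate 1 and 85314 CPM in replicate 2. Mir10a led with 31017 and 36714 CPM and Mir10b followed with 16633 and 23507 CPM. The least abundant were Mir190a, at 39.8 and 24.0 CPM, and Mir196a-1, at 11.97 and 10.5 CPM, which are in the range of the detected members. The mature sequence of Mir196a-1 is also found in Mir196a-2, so its reads can be uncounted like those of miR-194-5p. Of the 12, 4 were called higher in replicate 1 and 6 higher in replicate 2, and their median log2 ratio was 0.16.

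The epithelial list, whose miR-200 family members are known from tubule and other epithelia, mostly went the other way from Mir192. Its 7 genes summed to 1192 CPM in replicate 1 and 1871 CPM in replicate 2. Of the 5 tested, 4 were called higher in replicate 2, against 30.2% of all tested genes. Mir203 had 1147 and 1618 CPM, and Mir200c had 25.1 and 197 CPM. Mir200b had 19 and 73 counts, Mir141 had 6 and 24, Mir200a had 4 and 14 and Mir205 had 2 and 10. Mir429 had 19 and 8.

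Lists for neighbouring organs and other cells are given because liver and gut share the miR-192 family with the kidney. Mir122, the defining miRNA of hepatocytes, had 622 CPM in replicate 1 and 702 CPM in replicate 2, while Mir802 had 0 counts in both. The log2 ratio of Mir122 was 0.21, as was that of Mir194-2. Mir122, with 1611 and 1608 counts, was called higher in replicate 2, and Mir194-2, with 59 in each library, was not. The 3 pancreatic acinar genes summed to 1.93 CPM in replicate 1 and 0 in replicate 2. The striated muscle list summed to 598 and 81.2 CPM. Of its 9 genes, 4 of 4 tested were called higher in replicate 1, against 32.4% of all tested genes. Another 4 genes were at 0 in both libraries, among them Mir1a-1 and Mir133a-1. Both have a numbered partner gene that the RefSeq table lacks, so shared mature sequences could not be looked up there. Reads matching both genes of such a pair would be uncounted, so the counts of 0 of Mir1a-1 and Mir133a-1 do not show absence. Mir133b was at 0 in both libraries as well, and its mature sequences were found in no other hairpin of the RefSeq table. That table lacks Mir133a-1. The leading genes of the list were Mir206, with 737 and 182 counts, and Mir499, with 420 and 3.

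The remaining lists are given beside all tested genes, of which 32.4% were called higher in replicate 1 and 30.2% higher in replicate 2. Erythroid miRNAs summed to 902 and 490 CPM, with 2 of 3 tested genes, Mir451a and Mir144, higher in replicate 1. Mir486 had 70.7 and 81.6 CPM and did not pass. With strand ignored the mean of the erythroid sum was 87.7 CPM in place of 696. Endothelial Mir126a and Mir126b, which overlap on opposite strands, summed to 64764 and 33414 CPM, and both were higher in replicate 1. With strand ignored the mean of their sum was 0.947 CPM in place of 49089. Reads in overlapping genes could then be left uncounted as ambiguous, which was not tested. The endocrine medulla list, led by Mir375 and Mir7b, summed to 66107 and 56588 CPM, with 4 of 4 called higher in replicate 1. The log2 ratio of Mir375 was -0.17 and the median of the list was -0.52. With a summed count of at least 200, 78.6% of all tested genes were called in either direction. The ovary and gonad list, Mir383 and Mir202, summed to 244 and 206 CPM, and neither passed. The leukocyte list, led by Mir146 and Mir342, summed to 3047 and 2958 CPM, with 1 of 6 tested genes higher in each library. The part of these differences in the ratio of Mir192 was not tested. Since the tables hold miRNA genes only, steroidogenic and other mRNA markers of the adrenal were not measured.

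**Figure D4:**
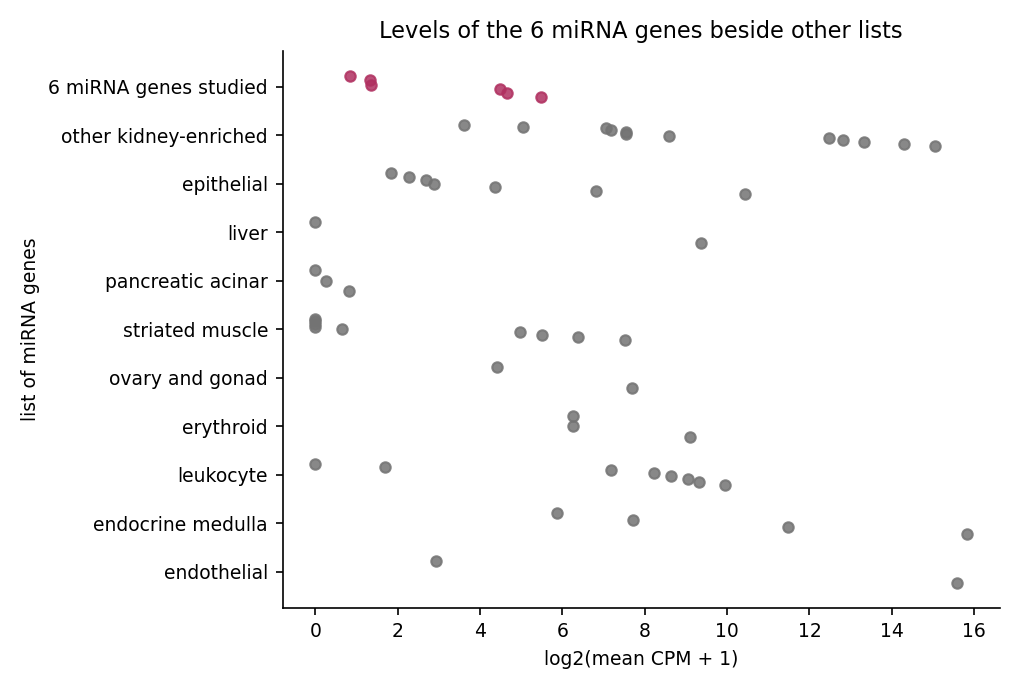
Mean level of each gene, as log2(mean CPM + 1) on the horizontal axis, for the 6 miRNA genes studied (top row) and for 10 comparison lists (1 row each, points spread vertically for visibility). The 6 genes reach 43.4 CPM at most, below Mir122 in the liver list and the Mir10 and Mir30 genes in the list of other kidney-enriched miRNAs.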

How the data were processed

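Raw read counts per miRNA gene were deposited for each library in 3 columns (strand ignored, own strand and opposite strand, as read from the values), on mm10 with GENCODE M21, per the deposited notes. Which aligner and counting program made them is not given in the sources used here. CAST/EiJ alleles that differ from mm10 could lose reads, which was not tested. The 4 rows that name no gene were left out of library sizes. Of all reads, 26.4% in replicate 1 and 32.8% in replicate 2 were own-strand gene counts, and 24.0% and 28.0% aligned to several places.

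CPM are counts per 1000000 own-strand counts. Intervals are exact (Clopper-Pearson or conditional binomial, SciPy 1.17.1). Library sizes were scaled with edgeR 4.0.16 TMM factors over genes with a summed count of at least 20 (1.01 and 0.987), and DESeq2 1.42.0 size factors were an alternative. Log2 ratios used a prior count of 0.5. The exact test was fitted across all 367 such genes. It was also run on simulated counts that held counting error alone, as the test assumes. That run does not show how the test behaves where libraries differ by more than counting error.

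The members, the lists and the alternatives were chosen with earlier results of these data known. Genes named are the 6 members, the 2 nearest detected genes per detected member, the 2 most abundant genes of each list, and genes of the other kidney-enriched and epithelial lists. Mir144 was named after its values were seen. Mir1a-1, Mir133a-1, Mir133b and Mir802 were named for their counts of 0 after these were seen, and Mir7670 for its seed.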

Additional observations from a re-analysis of the deposited data

Results flagged for a closer look

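Reads lay outside the gene counts in both libraries, above the 3 counts that a count of 0 allows. Those aligned to several places numbered 2357429 in replicate 1 and 1958627 in replicate 2, and reads of miR-194-5p within the stretch shared by Mir194-1 and Mir194-2 would belong to this class. Reads in no miRNA gene numbered 876402 in replicate 1 and 659864 in replicate 2. How many of either class came from the members was not tested.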

How the results depend on the processing

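Low counts limit every statement on Mir215, Mir211 and Mir194-1, and uncounted reads limit Mir194-1 and Mir194-2. The number of members called, 1 by the exact test, was 2 with DESeq2 size factors, with total counts, with strand ignored and with TMM factors over all genes (an alternative chosen after seeing the data), 3 of 6 with no filter, and 0 of 1 tested with a summed count of at least 200, where Mir192 is left out by its count. Over all tested genes the share called was 61.6% with DESeq2 size factors and with total counts, 62.6% with strand ignored, 61.0% with TMM over all genes, 31.5% with no filter and 78.6% with a summed count of at least 200. The added member was Mir204 under the first 4 of these settings and Mir215 and Mir211 with no filter. Adjusted p of Mir192 ranged from 1.66e-08 to 4.95e-07 wherever it was tested, and that of Mir204 from 0.0134 to 0.115. TMM over all genes moved the median log2 ratio of all tested genes from 0.01 to -0.12. Mir194-2 had a log2 ratio between 0.08 and 0.21 and passed under none of the settings.

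Per 1000000 of all reads, the mean levels of Mir204, Mir194-2, Mir192, Mir215, Mir211 and Mir194-1 were 12.6, 7.23, 5.98, 0.408, 0.5005 and 0.224, a change made by the larger denominator. With strand ignored Mir194-2 was at 27.9 CPM, also from its denominator. Without Mir194-1 and Mir194-2 the members summed to 67.9 CPM. Leaving out a replicate, the members' sum was 75.9 to 110 CPM, Mir192 10.04 to 32.8, Mir204 36.7 to 50.2, Mir194-2 22.8 to 25.8, Mir215 0 to 3.09, Mir211 0 to 3.06 and Mir194-1 0.436 to 1.16 CPM. The ratio of Mir192 to Mir194-2, 0.915 over both libraries, was 0.390 without replicate 1 and 1.44 without replicate 2, and that of Mir215 to Mir194-1, 2.0 over both, was 0 to 2.67. The ratio of Mir204 to Mir211, 30.6 over both, was 12 without replicate 1, and no ratio was defined without replicate 2. Mir192 to Mir215 was 10.6 without replicate 2 against 13.5 over both, with none defined without replicate 1. The number of members detected was 3 at minimums of 5, 10 and 20 counts and with strand ignored.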
